A study of Homo sapiens with 6 samples.

Results

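Transforming growth factor beta (TGF-beta) is a secreted signal that controls growth, matrix production and cell identity, and in the heart it is best known for its part in fibrosis. Its 3 ligand isoforms are made as latent complexes, many of them bound to the matrix through latent TGF-beta binding proteins. Once released, a ligand joins a type II and a type I receptor kinase, the type I receptor phosphorylates SMAD2 and SMAD3, and these enter the nucleus with SMAD4 to regulate target genes. 9 genes were followed here, chosen by name as ligands, receptors and targets of the pathway: the ligands TGFB1, TGFB2 and TGFB3, the binding protein LTBP1, the receptors TGFBR1 and TGFBR2, and the target or feedback genes TGFBI, PMEPA1 and TGIF1. Each of the 9 had 1 array feature with that gene as its only symbol, out of 22411 genes with a symbol and 70523 features in all.

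The RNA came from AC16, an established human cell line made by fusing adult ventricular heart cells with a transformed fibroblast line, so it is a dividing model of heart muscle and not beating tissue. Cells of the control group were kept at 37 °C and cells of the hypothermia group at 28 °C, both for 6 h, in the same medium with serum and 5% CO2 and with no other agent. There were 3 arrays per group, and whether they stand for separate cultures is not stated, so the spread between them may be technical. All values are log2 signals, so a difference of 1 is a doubling, and a log2 fold change is the mean at 28 °C minus the mean at 37 °C. Signals of different genes come from different probes, and so only changes and not levels were compared between genes. In RNA from a whole culture, fewer cells that express a gene and less of its RNA per cell cannot be told apart.

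Array medians lay between 3.33 and 3.41, and no 2 arrays were identical. The means of the 23 background control features ran from 1.76 to 10.93, and their median was 2.55, so presence was not called from the level alone. The 9 cardiomyocyte markers measured had means from 2.06 to 5.53, and RYR2 (the ryanodine receptor) and PLN (phospholamban) were below the median background feature. The 6 fibroblast and mesenchymal markers measured had means from 7.18 to 11.08. Leukocyte markers ranged from 2.19 to 3.89 and endothelial markers from 2.67 to 4.18 (4 measured in each list), and no marker of any list passed the test between temperatures. On each array the log2 signals of the 9 cardiomyocyte markers summed to 34.86 to 35.77 at 37 °C and to 35.84 to 35.93 at 28 °C, so the groups lay apart by a small margin. The array medians were 3.33, 3.34 and 3.40 on control arrays 1, 2 and 3 and 3.39, 3.39 and 3.41 on the hypothermia arrays. The part of this array-wide difference in the sums was not tested. The sums of the 6 fibroblast and mesenchymal markers, 55.53 to 56.52 and 56.15 to 56.31, overlapped. Only NPPA among the markers had an unadjusted p under 0.05, at a log2 fold change of 0.23. Their part in the results below was not tested.

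None of the 9 genes rose or fell at an adjusted p under 0.05 in limma, the linear model used for all features (Benjamini-Hochberg adjustment over all 70523). The same rule called 0.227% of the features as higher and 0.591% as lower, or 0.428% and 0.772% of the genes with a symbol. At an unadjusted p under 0.05, 1 of the 9 genes was higher and 2 were lower, against 5.4% and 9.29% of all genes. The methods' t-test in its plain form and with its random variance model each gave the same counts of 1 and 2. Of the 9 genes, 5 had a higher mean and 4 a lower mean at 28 °C, with a median log2 fold change of 0.027, which was also the median over all genes (0.027). In 2 of the 9 every 28 °C array lay above every 37 °C array, as did 11.5% of all genes, and in 2 every 28 °C array lay below, as did 13.8% of all genes.

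**Figure D1:**
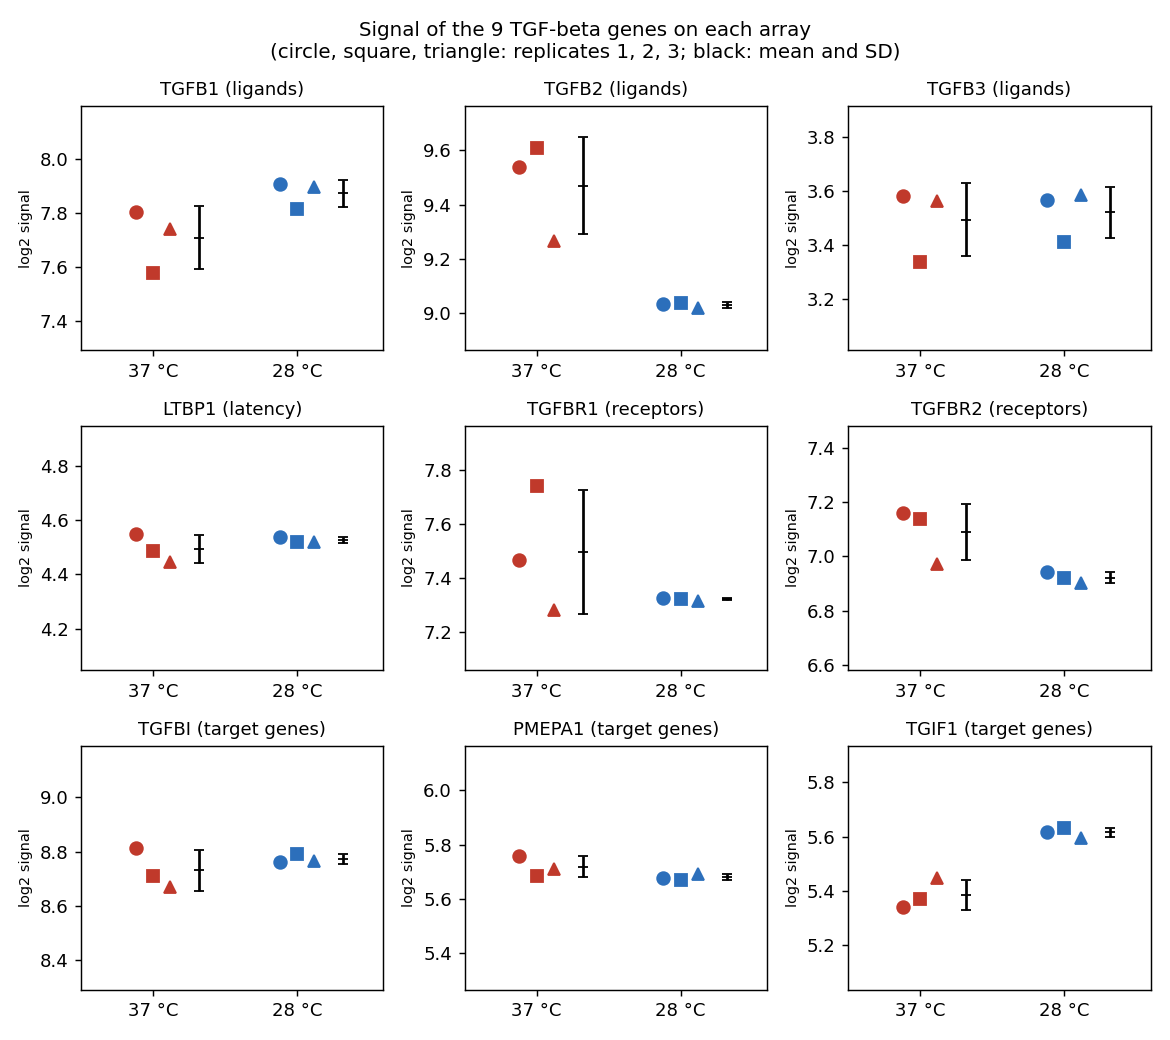
Log2 signal (vertical axis, the same span of 0.9 in every panel) of the 9 TGF-beta genes at 37 °C (red) and 28 °C (blue). Symbols are the 3 arrays of a group and black bars the mean ± SD. TGFB2 and TGFBR2 lay lower on all 28 °C arrays and TGFB1 and TGIF1 higher, and the other 5 genes overlapped.

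The ligands differed in the direction of their measured changes. TGFB2, the isoform whose loss in the mouse causes heart malformations, had log2 signals of 9.54, 9.61 and 9.27 in control replicates 1, 2 and 3 and of 9.04, 9.04 and 9.02 in hypothermia replicates 1, 2 and 3. All hypothermia arrays were lower than all control arrays, and control replicate 3 was the control nearest to them. The mean was 9.03 ± 0.0102 (SD, n = 3) after cooling against 9.47 ± 0.18 (SD, n = 3) in the controls. The log2 fold change was -0.44 (standard error 0.0936, 95% interval -0.657 to -0.224), a signal 1.36-fold lower at 28 °C. It missed the threshold over all features (adjusted p = 0.102 from limma). Of all genes, 98.1% had a smaller log2 change in either direction.

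The call of TGFB2 changed with the arrays and the fit. Without control replicate 3 the log2 fold change was -0.54 and passed (adjusted p = 0.0205 from limma), and without control replicate 2 it was -0.37 and did not. It also passed with array weights (-0.48, adjusted p = 0.0193 from limma). Across all 15 alternatives the adjusted p ranged from 0.0193 to 0.358 and the log2 fold change from -0.54 to -0.29, always lower at 28 °C. The brighter background features had means of 6.20, 6.10 and 6.47 on control arrays 1, 2 and 3 and 6.40, 6.39 and 6.49 on the hypothermia arrays. With that background as a covariate TGFB2 had -0.29 (adjusted p = 0.221 from limma). This background ran partly with the group, so with 6 arrays its part and that of temperature cannot be told apart. The same holds for the other fits with this covariate below. The part of background in the change of TGFB2 was not tested.

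TGFB1, the most widely expressed isoform and the one most often linked to fibrosis, had log2 signals of 7.80, 7.58 and 7.74 at 37 °C and of 7.91, 7.81 and 7.89 at 28 °C. The groups did not overlap, but the highest control and the lowest hypothermia array were 7.80 and 7.81. The log2 fold change was 0.16 (standard error 0.0774, 95% interval -0.015 to 0.343, adjusted p = 0.476 from limma), and it did not pass under any of the 15 alternatives (0.10 to 0.21). TGFB3, an isoform required for fusion of the palate in the mouse, had log2 signals of 3.58, 3.34 and 3.56 at 37 °C and of 3.57, 3.41 and 3.59 at 28 °C. Its mean of 3.51 lay near the array medians (3.33 to 3.41), and the part of a low signal in its change was not tested. Its groups overlapped, with a log2 fold change of 0.03 (95% interval -0.178 to 0.232, adjusted p = 0.929 from limma) whose sign turned under several alternatives, among them quantile normalization (-0.01) and centring of the arrays on their medians (-0.009).

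Differences in change between related genes were tested on the within-array difference of their log2 signals, in 4 pairs. Their standard errors and 95% intervals come from a pooled variance of the 2 groups and assume normal values. The p comes from permutation, so an interval and its p need not give the same verdict. The change of TGFB1 exceeded that of TGFB2 by 0.60 (standard error 0.149, 95% interval 0.19 to 1.02), with an exact two-sided permutation p = 0.1 and adjusted p = 0.133 over the 4 pairs. TGFB1 exceeded TGFB3 by 0.14 (standard error 0.0323, 95% interval 0.05 to 0.23) and TGFB2 differed from TGFB3 by -0.47 (standard error 0.173, 95% interval -0.95 to 0.01), each with exact permutation p = 0.1 and adjusted p = 0.133. For all 3 ligand pairs the within-array differences of the 2 groups did not overlap. For TGFB1 and TGFB2 this gap follows from the opposite, non-overlapping groups of the single genes and adds nothing to them. The 3 pairs are made from the same 3 genes and are not independent. The share of all gene pairs with such a gap was not computed. The pairs with TGFB3 hold a gene whose signal lay near the array medians, and the part of this in their differences was not tested. With 3 arrays against 3 no exact permutation p can be lower than 0.1, so this test cannot reach the threshold of 0.05.

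The sequences just before the starts of TGFB1 and TGFB2 are shown because these ligands had opposite measured changes and no overlap between groups. They are the 250 bases before the RefSeq start of each gene (assembly GRCh38.p14), from 5′ to 3′ on the strand of the gene. TGFB1 is at chr19:41353923-41354172 on the minus strand and TGFB2 at chr1:218345086-218345335 on the plus strand. Capitals mark matches on either strand to 5 motifs: the AP-1 site TGANTCA, the cyclic AMP response element core TGACGTCA, the palindromic SMAD element GTCTAGAC, the shorter SMAD box CAGAC and the EGR site GCGTGGGCG.
TGFB1: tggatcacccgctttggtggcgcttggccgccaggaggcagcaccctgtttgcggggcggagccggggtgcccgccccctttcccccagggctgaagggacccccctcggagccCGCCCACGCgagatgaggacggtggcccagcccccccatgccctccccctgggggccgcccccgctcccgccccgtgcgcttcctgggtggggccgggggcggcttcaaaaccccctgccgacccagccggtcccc
TGFB2: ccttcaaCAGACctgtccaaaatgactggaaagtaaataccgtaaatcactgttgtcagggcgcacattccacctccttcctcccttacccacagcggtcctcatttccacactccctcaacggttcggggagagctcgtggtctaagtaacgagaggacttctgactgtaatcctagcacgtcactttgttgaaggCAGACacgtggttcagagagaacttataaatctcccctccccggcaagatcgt
TGFB1 held 1 EGR site on the opposite strand, starting 136 bases before the gene, and none of the other motifs. TGFB2 held 2 SMAD boxes, starting 243 and 53 bases before the gene. Of 27305 promoters of the same length, 0.71% held the EGR site and 37.8% a SMAD box. The AP-1 site was in 6.6% of promoters, the cyclic AMP element in 1.77% and the palindromic SMAD element in 0.176%. All 9 genes were found in the RefSeq promoter table. A SMAD box stood in 5 of them, the EGR site in 1 and the cyclic AMP element in 1 (LTBP1, the binding protein), and neither the AP-1 site nor the palindromic SMAD element was found in any. TGFBR1 is among those counted with a SMAD box. The bases used for it, chr9:99104863-99105112, lie inside the gene as RefSeq places it (99103647 to 99154192) and not before its start. A match is a description of the sequence and not of binding in these cells.

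LTBP1, which tethers latent TGF-beta to the matrix, had nearly equal means at both temperatures. Its log2 signals were 4.55, 4.49 and 4.45 at 37 °C and 4.54, 4.52 and 4.52 at 28 °C. The hypothermia arrays lay inside the range of the controls. The log2 fold change was 0.03 (standard error 0.0611, 95% interval -0.109 to 0.173, adjusted p = 0.872 from limma), and it turned to -0.004 after quantile normalization and after median centring.

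Both receptor genes had lower means at 28 °C, neither past the threshold. TGFBR2, the type II receptor that binds the ligand first, had log2 signals of 7.16, 7.14 and 6.97 at 37 °C and of 6.94, 6.92 and 6.90 at 28 °C. All hypothermia arrays were lower than all controls, again with control replicate 3 nearest. The log2 fold change was -0.17 (standard error 0.0716, 95% interval -0.335 to -0.004, adjusted p = 0.422 from limma). It ranged from -0.228 to -0.085 under the 15 alternatives and passed in none (adjusted p from 0.126 to 0.784 over these fits). The smallest change, -0.085, came with the brighter background as a covariate. TGFBR1, the type I receptor that phosphorylates the SMADs, had log2 signals of 7.47, 7.74 and 7.28 at 37 °C and of 7.33, 7.32 and 7.32 at 28 °C. The hypothermia arrays lay within the wide range of the controls, and control replicate 3 was lower than all of them.

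The log2 fold change of TGFBR1 was -0.17 (standard error 0.11, 95% interval -0.428 to 0.082, adjusted p = 0.593 from limma). It was -0.05 without control replicate 2 and -0.28 without control replicate 3. With the brighter background as a covariate it was 0.009. The changes of the 2 receptors differed by -0.004 (standard error 0.0978, 95% interval -0.28 to 0.27, exact two-sided permutation p = 1 over the 6 arrays).

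Among the target and feedback genes only TGIF1 had groups that did not overlap. TGIF1, a homeodomain repressor that binds SMAD2 and limits TGF-beta responses, had log2 signals of 5.34, 5.37 and 5.45 at 37 °C and of 5.62, 5.63 and 5.60 at 28 °C. The mean was 5.62 ± 0.0176 (SD, n = 3) after cooling against 5.39 ± 0.0556 (SD, n = 3) in the controls. The log2 fold change was 0.23 (standard error 0.0621, 95% interval 0.086 to 0.373), a signal 1.17-fold higher, with adjusted p = 0.195 from limma. It was between 0.19 and 0.26 under all 15 alternatives and passed in none (adjusted p from 0.0633 to 0.505). Of all genes, 89.4% had a smaller log2 change in either direction.

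The promoter of TGIF1 is shown beside those of the ligands because TGIF1 had the largest increase of the 9 genes. It lies at chr18:3411759-3412008 on the plus strand of GRCh38.p14, with the same marks.
TGIF1: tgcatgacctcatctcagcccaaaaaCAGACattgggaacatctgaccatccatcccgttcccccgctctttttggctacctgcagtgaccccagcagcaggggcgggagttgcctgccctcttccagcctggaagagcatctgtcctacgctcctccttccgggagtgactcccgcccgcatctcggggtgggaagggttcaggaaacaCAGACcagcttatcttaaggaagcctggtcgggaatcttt
It held 2 SMAD boxes, starting 224 and 40 bases before the gene.

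TGFBI and PMEPA1, both commonly read as reporters of TGF-beta activity, did not pass the threshold in either direction. TGFBI, a secreted matrix protein induced by TGF-beta, had log2 signals of 8.81, 8.71 and 8.67 at 37 °C and of 8.76, 8.79 and 8.76 at 28 °C. Its groups overlapped and the fitted change was 0.04 on the log2 scale (standard error 0.0653, 95% interval -0.109 to 0.193, adjusted p = 0.839 from limma). PMEPA1, a membrane protein that binds receptor SMADs and dampens the signal, had log2 signals of 5.76, 5.69 and 5.71 at 37 °C and of 5.68, 5.67 and 5.69 at 28 °C. Its groups overlapped too, and the fitted change was -0.04 (standard error 0.0595, 95% interval -0.177 to 0.098, adjusted p = 0.833 from limma). Neither gene passed under any of the 15 alternatives.

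**Figure D2:**
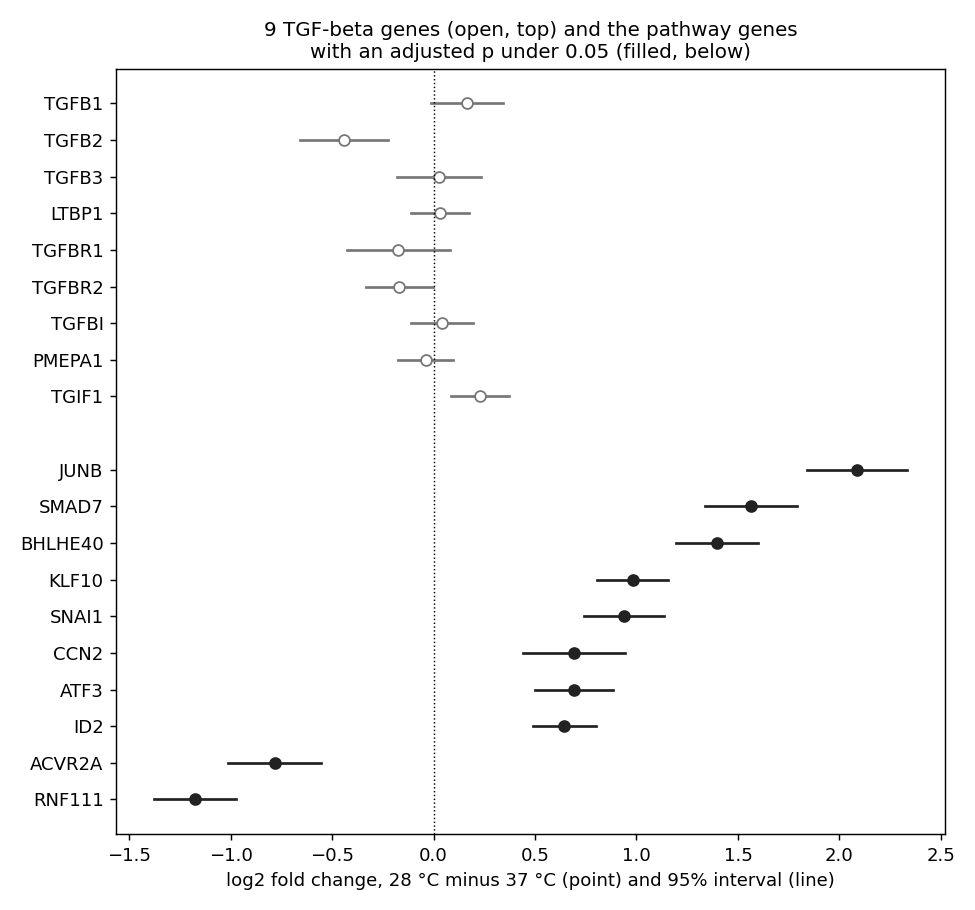
Log2 fold change (28 °C minus 37 °C, horizontal axis) with its 95% interval from limma for the 9 TGF-beta genes (open) and for the 10 further pathway genes that passed an adjusted p under 0.05 (filled). The 9 genes lay between -0.44 and 0.23. The filled genes reached -1.18 and 2.09, but are drawn because they passed the threshold. The 72 pathway genes that did not pass, not drawn here, lay between -0.39 and 0.37.

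The 9 genes varied more at 37 °C than at 28 °C. In all 9 the SD of the 37 °C arrays was above that of the 28 °C arrays, as in 72.8% of all genes. The median SD over the 9 genes was 0.102 at 37 °C and 0.0167 at 28 °C, against 0.093 and 0.0553 over all genes. Control replicate 3 was the control nearest to the 28 °C mean in 5 of the 9 genes and in 54.3% of all genes, which is near the share over the array.

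**Figure D3:**
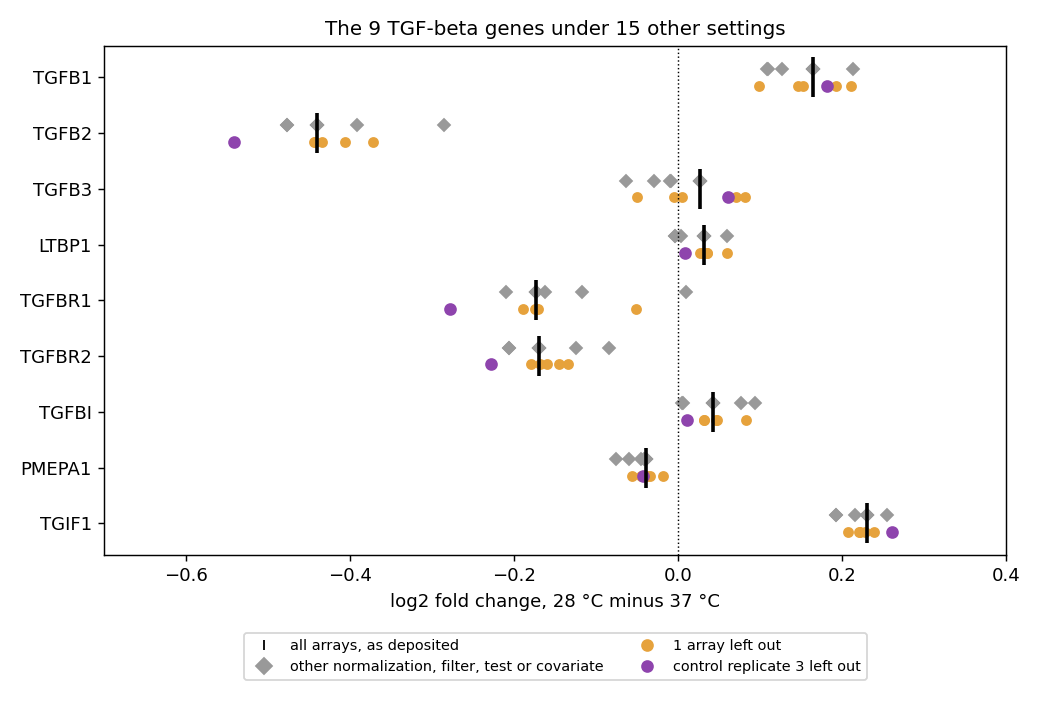
Log2 fold change (28 °C minus 37 °C, horizontal axis) of the 9 TGF-beta genes with all arrays (black bar), with another normalization, filter, test or covariate (grey) and with 1 array left out (orange, or purple for control replicate 3). TGFB2 moved between -0.54 and -0.29, and TGFB3 lay on both sides of 0.

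The genes whose pattern over the 6 arrays was nearest to that of TGFB2, the gene with the largest test statistic of the 9, were DOCK10, WDFY3, QSER1, TAF1 and ZNF252P. Likeness was the root mean square difference of the log2 signals after each gene was centred on its own mean, and it ranged from 0.0114 for DOCK10 to 0.0264 for ZNF252P. Their log2 fold changes were between -0.46 and -0.43, and none passed (adjusted p from 0.0737 to 0.125 in limma). As they were picked for likeness over these same arrays, changes near that of TGFB2 follow from the choice.

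Further genes of the pathway were taken from a list of 85 made from textbook roles, of which 82 were measured by a feature of their own. The list was written with earlier results of these data known, so its counts are a description and not an independent comparison with all genes. Of the 82, 8 rose and 2 fell at an adjusted p under 0.05 in limma, beside the 0.428% and 0.772% of all genes given above, and their median log2 fold change was 0.066. JUNB, BHLHE40, KLF10, SNAI1, CCN2, ATF3 and ID2 made up 7 of the 8 that rose, all among the 22 other target genes, which had a median log2 fold change of 0.145. JUNB, a subunit of the transcription factor AP-1, had log2 signals of 6.29, 6.09 and 6.32 at 37 °C and of 8.53, 8.19 and 8.25 at 28 °C. All hypothermia arrays were far above all controls, and the change of 2.09 on the log2 scale was the largest of the list (4.25-fold, adjusted p = 0.00139 from limma). BHLHE40, a clock repressor, rose by 1.40, KLF10, a TGF-beta inducible repressor, by 0.98 and SNAI1, a driver of epithelial to mesenchymal transition, by 0.94. All 4 passed whichever array was left out. These genes also answer to growth factors and stress, and several were known from earlier results of these arrays. The 15 target genes that did not pass had log2 fold changes from -0.34 to 0.37.

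CCN2, the connective tissue growth factor, rose by 0.69 (adjusted p = 0.0347 from limma), ATF3, a stress-induced transcription factor, by 0.69 (adjusted p = 0.0121) and ID2, an inhibitor of helix-loop-helix factors, by 0.65 (adjusted p = 0.00738). Without 1 array CCN2 passed only when control replicate 1 was left out, and had an adjusted p of 0.125, 0.0564, 0.147, 0.116 and 0.119 without control replicate 2 or 3 or hypothermia replicate 1, 2 or 3. CCN2 also missed the threshold after centring of the arrays on their medians (adjusted p = 0.0653). ATF3 kept its call when control replicate 2 or 3 was left out. Its adjusted p was 0.0654 without control replicate 1 and 0.0561, 0.053 and 0.0551 without hypothermia replicate 1, 2 or 3. ID2 passed whichever array was left out. In the fit with the brighter background as covariate the log2 change of CCN2 was 0.76 (standard error 0.136 against 0.108 without it), that of ATF3 0.58 (0.0741 against 0.0829) and that of ID2 0.64 (0.0785 against 0.0668). All 3 then missed the threshold (adjusted p = 0.129, 0.0588 and 0.0539 from limma). Of the target genes that did not pass, ID1, another inhibitor of this kind, had the largest log2 fold change, 0.37 (adjusted p = 0.0951). In ID3, also of this kind, all 28 °C arrays lay below all 37 °C arrays, as in 13.8% of all genes. The log2 fold change of ID3 was -0.34 (adjusted p = 0.248 from limma), opposite in sign to the measured changes of ID1 and ID2. Only ID2 of these inhibitors passed, and differences in change between them were not tested.

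Of 20 SMADs and their regulators, 1 rose and 1 fell, with a median log2 fold change of -0.03. SMAD7, the inhibitory SMAD that recruits ubiquitin ligases to the receptors, had log2 signals of 6.14, 5.93 and 6.30 at 37 °C and of 7.73, 7.68 and 7.65 at 28 °C. The groups lay well apart, and SMAD7 rose by 1.57 on the log2 scale (2.96-fold, adjusted p = 0.00178 from limma). RNF111, a ubiquitin ligase that removes SMAD7 and the corepressors SKI and SKIL, had log2 signals of 6.50, 6.40 and 6.22 at 37 °C and of 5.13, 5.29 and 5.17 at 28 °C. All hypothermia arrays were lower, and RNF111 fell by 1.18 (adjusted p = 0.00255). Both passed whichever array was left out. The next largest change there was that of SMURF2, a ligase that works with SMAD7, at -0.39 (adjusted p = 0.159). Of 12 other receptors and coreceptors none rose and 1 fell. It was ACVR2A, a type II receptor for activins, at -0.78 (standard error 0.0991, adjusted p = 0.0149). ACVR2A passed without control replicate 2 or 3, and had an adjusted p of 0.0901 without control replicate 1 and of 0.0651, 0.0729 and 0.067 without hypothermia replicate 1, 2 or 3. TGFBRAP1, a receptor-associated protein, had the largest change among the receptors that did not pass, 0.16 (adjusted p = 0.453).

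None of the 11 other ligands of the superfamily passed, and INHBB, an activin subunit, had the largest change, -0.39 (adjusted p = 0.121 from limma). None of the 17 genes of ligand latency and activation passed. The largest change there was that of ITGAV, an integrin subunit that takes part in release of TGF-beta from its latent form, at -0.33 (adjusted p = 0.267), and the group median was 0.108. At an unadjusted p under 0.05, 1 of the other ligands was higher and 2 were lower, 3 of the latency genes were higher and 1 was lower, and 0 of the other receptors were higher and 1 was lower. The counts were 3 and 4 for the SMADs and their regulators and 10 and 2 for the other targets, beside 5.4% and 9.29% of all genes. 3 of the 82 genes had a mean below the median background feature.

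**Figure D4:**
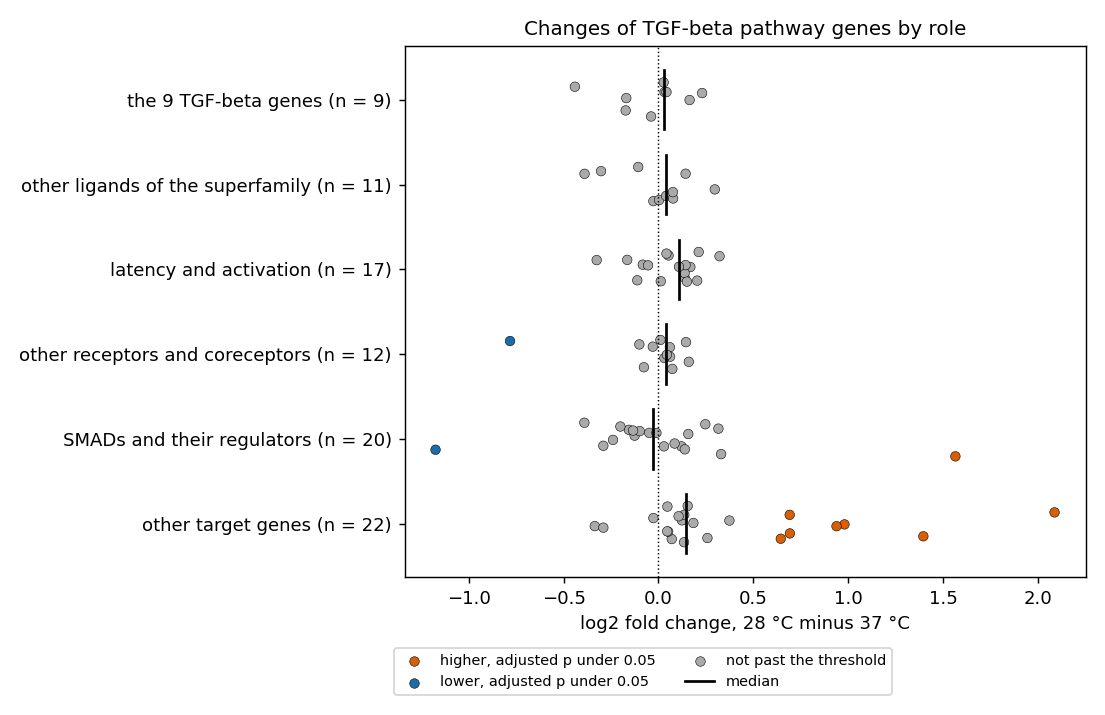
Log2 fold change (28 °C minus 37 °C, horizontal axis) of the 9 TGF-beta genes and of 82 further pathway genes by role, one point per gene (vertical scatter within a row is only for display). Black bars are medians and coloured points passed an adjusted p under 0.05 in limma. The 8 orange points are 7 target genes and SMAD7, and the 2 blue points are RNF111 and ACVR2A.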

How the data were processed

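Total RNA of AC16 cells kept at 28 °C or 37 °C for 6 h was hybridised to 6 Affymetrix arrays, 3 per group. The authors deposited log2 signals made with RMA, a method that subtracts background, sets the arrays to a common distribution and combines probes into 1 value per feature. RMA shrinks differences between arrays that affect all features alike, so a change shared by all genes would not be seen. The RMA version is not given in the sources used here. These log2 values, as deposited, were fitted with limma 3.58.1 (R 4.3.3) with group as the only term, and adjusted by Benjamini-Hochberg over all features.

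Gene symbols came from the platform annotation, updated through RefSeq (23777 of 23781 features with 1 symbol matched). For a gene with several features, the brightest by its mean was taken. The 9 genes, the pathway list, the markers and the alternatives were chosen with earlier results of these data known. Named were the 9 genes, pathway genes past the threshold, the largest other change in each role, and the 5 genes nearest in pattern to 1 of the 9. ID3 was named in addition, beside ID1 and ID2. Of the pathway list, 3 genes are not analysed here. Single markers fall outside this rule and were picked with their values in view. The fits were tested on simulated data. The number of arrays limits the precision.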

Additional observations from a re-analysis of the deposited data

How the results depend on the processing

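Each of the 9 genes was refitted under 15 alternatives: quantile normalization, median centring, a filter that kept features with a mean signal over the 50th percentile, the methods' t-test with its random variance model and in its plain form, variances with a trend on intensity fitted robustly, array weights, the replicate block, the brighter background as a covariate, and leaving out each array. TGFB1, TGFB2, TGFBR2, TGFBI, PMEPA1 and TGIF1 kept their direction in all 15. TGFB3 turned to -0.01 after quantile normalization, -0.009 after centring, -0.03 with array weights and -0.064 with the background covariate, and ranged from -0.05 to 0.081 without 1 array. LTBP1 turned to -0.004 after quantile normalization and after centring, and TGFBR1 to 0.009 with the background covariate. TGFBR1 minus TGFBR2 turned to 0.007 after quantile normalization and ranged from -0.054 to 0.093 without 1 array. The number of the 9 genes that fell was 1 with array weights and 0 to 1 without 1 array (TGFB2, without control replicate 3), and no alternative gave a rise. As every gene had a single feature of its own, averaging over features could not change a value. For the 82 pathway genes the plain form gave 0 rises and 0 falls, array weights 5 falls, the background covariate 5 rises (CCN2, ATF3 and ID2 missed, at 0.763, 0.579 and 0.641 against 0.693, 0.692 and 0.645), and leaving out 1 array 1 to 3 falls. Over all features the plain form called 0 and 0 after adjustment, while at an unadjusted p under 0.05 it gave 1379 genes higher and 1986 lower. The filter gave 249 higher and 628 lower, array weights 379 and 1107, the background covariate 66 and 105, and leaving out 1 array 60 to 214 higher and 112 to 799 lower. The counts of 214 and 799 came from omitting control replicate 3, and for each of the other arrays they were 60 to 86 and 112 to 208. Centring gave 121 higher and 426 lower against 160 and 417 as deposited. The cause of these shifts was not tested. Replicate numbers are shared between the groups, but the labels do not say that same-numbered arrays are pairs. Their deviations correlated at -0.102, 0.142 and 0.329, and those of differently numbered arrays at -0.367 to 0.233. These values cannot decide on pairing, so the main fit left it out and the replicate block is given beside it. With the replicate block 122 features were higher and 304 lower, TGFB2 had -0.441 (adjusted p = 0.114 from limma), and no call among the 9 genes changed.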
